A study of Homo sapiens with 6 samples.

Results

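The dense-core granule of the pancreatic beta cell is represented here by 10 genes: CHGA, CHGB, SCG2, SCG3, SCG5, PCSK1, PCSK2, CPE, PAM and VGF. They were taken as a named set, and the accessible chromatin that belongs to them was found by position. A promoter region is a region that overlaps 2 kb on either side of the start of a GENCODE protein-coding transcript of the gene. A distal region is any other region whose midpoint has a start site of the gene as its nearest protein-coding start, within 100 kb. By this rule the 10 genes held 18 promoter regions and 87 distal regions, together 105 of the 108542 regions in the table.

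Open chromatin was profiled in EndoC-βH3, a line of human beta cells, by ATAC-seq, in which the Tn5 transposase inserts adapters into accessible DNA. The line carries an excisable immortalizing cassette (hTERT and SV40 Large T) and a tamoxifen-activated Cre (CreER), and its genotype is otherwise labelled wild type. The 3 non-senescent libraries came from control cells, and the 3 senescent libraries came from cells given 4-hydroxytamoxifen (4-OHT) for 3 weeks, which removes the cassette. Each library was made from 100000 cells. All cells belong to a single line, and the labels do not say whether the replicates were separate cultures.

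Endocrine granules condense and process their cargo as they mature. Granins, which are acidic secretory proteins, help to pack the cargo in the trans-Golgi network. Prohormone convertases then cut proinsulin and other prohormones at paired basic residues, a carboxypeptidase trims the exposed basic residues, and an amidating enzyme finishes some peptides.

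The value given for each region is the authors' mean signal: reads in the region, normalized for sequencing depth and averaged over all 6 libraries with both groups pooled. It is 1 value per region and has no error of its own, and it does not show how deeply any library was sequenced. The values therefore describe how accessible the granule genes were in these cells as a whole. They hold no comparison of senescent with non-senescent cells, and neighbours in an order of levels cannot be told apart by replicate error. Percentiles of a gene are taken among the 15493 protein-coding genes that had a promoter region, out of 19676 annotated.

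The cells carried open chromatin at the beta cell genes used to check their label. All 13 beta cell markers had a promoter region, and in 9 of them the strongest was above the median of genes, led by INS at a mean signal of 7894. Those below it were KCNJ11 at 613, ABCC8 at 509, NKX2-2 at 405 and IAPP at 183. Of 15 markers of other cell types, 10 had a promoter region and 2 were above that median, CPA1 at 2101 and KRT19 at 1059. PRSS1, PTPRC, COL3A1, VWF and ALB had none. Among other islet hormone genes, GCG, the glucagon gene, reached 66.3, PPY 143, SST 195 and GHRL 740. Divided by region width, GHRL (814 per kb) and CD68 (921) also passed the median of genes (695), as did the beta cell marker NKX2-2 (1738).

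Several granule gene promoters held a full cyclic AMP response element (CRE), the palindrome TGACGTCA that is bound by factors of the CREB family. The bases before the start site are shown for the 3 genes whose RefSeq promoter (build GRCh38.p14) held it. Each runs from position -120 to -1, with the start site at 1, on the strand of the gene, and the capitals mark the CRE.
CHGA, chr14:92923030-92923149, plus strand: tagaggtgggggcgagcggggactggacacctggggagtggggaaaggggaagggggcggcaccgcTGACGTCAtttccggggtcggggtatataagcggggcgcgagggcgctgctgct
PCSK1, chr5:96433249-96433368, minus strand: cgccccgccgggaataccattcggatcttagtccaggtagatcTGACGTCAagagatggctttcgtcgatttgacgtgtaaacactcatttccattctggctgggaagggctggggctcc
VGF, chr7:101165570-101165689, minus strand: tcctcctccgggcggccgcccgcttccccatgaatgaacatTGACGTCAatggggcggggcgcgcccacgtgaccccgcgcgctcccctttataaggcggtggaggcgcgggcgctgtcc
The CRE lay at -54 to -47 in CHGA, at -77 to -70 in PCSK1 and at -79 to -72 in VGF, so that in all 3 it fell within 80 bases before the start. RefSeq promoters were matched for 8 of the 10 genes, with 12 promoters in all, and CHGB and SCG2 were not matched. The element was in 3 of these 12 promoters (25.0%), against 1.85% of the 35116 in the RefSeq table.

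The accessible regions gave a like count. In windows of 300 bp around the midpoints, 3 of the 18 promoter regions held a CRE, those of CHGB, SCG2 and VGF, against 1.41% of all 20094 promoter regions. Over whole regions it was found in 5 of the 18 (27.8%), against 3.33% of all. By gene this was 5 of 10 (CHGA, CHGB, SCG2, PCSK1 and VGF), while 5.11% of the 15493 genes with a promoter region had a CRE in at least 1 of theirs. No CRE was found in the 87 distal regions, a class in which 0.537% of all regions held it. Such a match is one of letters and not a measure of binding, and its absence says only that the letters are not in the window. The 12 motifs searched, the CRE and the RE1 below among them, were chosen with earlier results of these data known.

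Another sequence was shared by the promoter regions of CHGA and CHGB. The repressor element RE1, bound by REST, which silences neuronal and endocrine genes in other tissues, was searched as CAGCACC and GGACAG with 2 bases between them. It was in the whole promoter regions of these 2 genes (11.1% of 18) and in 0.299% of all promoter regions. In the 300 bp windows it was found in 0 of 18, against 0.0946% of all promoter regions, a share at which 0 tells little. The CHGA match is shown with 20 bases on either side, with the parts searched for in capitals, from build hg38.
CHGA, chr14:92923505-92923559, plus strand: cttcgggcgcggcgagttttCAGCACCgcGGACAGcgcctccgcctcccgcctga
This match lay at 376 to 390 from the start site, past the end of the first exon at position 92923405, and thus in the first intron.

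**Figure D1:**
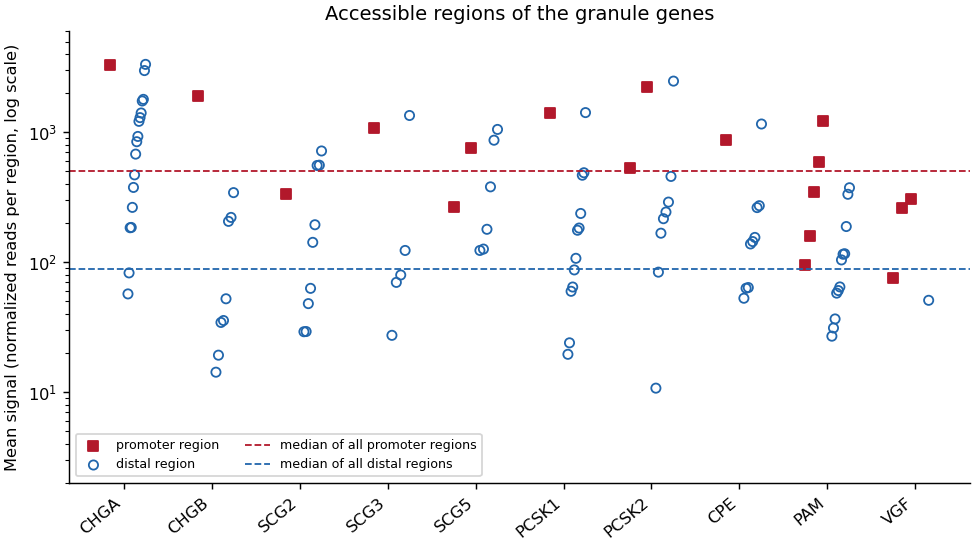
Mean signal (log scale, normalized reads per region) of every accessible region of the 10 granule genes, with filled squares for promoter regions and open circles for distal regions. Dashed lines mark the medians of all promoter regions (506) and of all distal regions (88.4), and the distal regions of CHGA reach the highest values.

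Chromogranin A (CHGA), a major granin of neuroendocrine cells, had the most accessible surroundings of the set. Its single promoter region, chr14:92922097-92923596, had a mean signal of 3313, at percentile 97.9 among genes. On the scale of signal per kb of region this was 2209 per kb, at percentile 95.7. Its 17 distal regions ranged from 56.9 to 3335, with a median of 846, and 7 of them reached 1000 or more. The signal summed over its promoter and distal regions was 21163, which ranked 6 among all 19676 genes, and 84.3% of it was distal. The strongest distal region by mean signal, chr14:92935592-92937916, lay 13604 bp downstream of the start, between protein-coding genes and just past the end of CHGA. The most accessible per kb, chr14:92916957-92917909, lay 5717 bp upstream, with a mean signal of 2987 and 3135 per kb. A further 6 regions, with mean signals of 56.9 to 1793, lay in introns of the neighbouring gene ITPK1, an inositol phosphate kinase. These are assigned to CHGA by distance alone.

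Chromogranin B (CHGB), the second chromogranin of the beta cell granule, showed the opposite balance. The promoter region at chr20:5910962-5912080 was strong, with a mean signal of 1905 and 1702 per kb, at percentiles 87.1 and 90.3. Its 8 distal regions ranged from 14.2 to 343 with a median of 43.8, and all of them were upstream of the start. The strongest, chr20:5845686-5846738, was in an intron of SHLD1. Distal regions made up 32.7% of the summed signal of CHGB, the lowest share but for VGF.

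Secretogranin II (SCG2), the precursor of secretoneurin, had a weak promoter region. At chr2:223602095-223602752 the mean signal was 333, at percentile 21.7, and per kb it was 507, at percentile 35.7. Its 9 distal regions ranged from 29.1 to 718. The strongest of these, chr2:223633548-223634237, lay 31531 bp upstream between protein-coding genes. Its mean signal was 2.15 times that of the promoter region, and 2.05 times per kb. Of the summed signal, 87.5% was distal, the highest share among the 10 genes.

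Secretogranin III (SCG3), which binds chromogranin A and cholesterol-rich granule membrane, had a promoter region at chr15:51680905-51681791 with a mean signal of 1077 and 1214 per kb. Of its 5 distal regions, 4 had mean signals of 27.3 to 123, and 1 stood apart at 1347. This region, chr15:51707758-51709262, lay in an intron of SCG3 at 27007 bp downstream of the start and was 1505 bp wide. It exceeded the promoter region in mean signal by 1.25 times, but per kb the order turned, at 895 against 1214.

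VGF, a granin-like precursor of several neuroendocrine peptides, was the least accessible of the set. It had 3 promoter regions, of which the one over the start site, chr7:101165238-101165948, had a mean signal of 262. The strongest, chr7:101163411-101164758, lay over the coding sequence and had 304, and the third, chr7:101162984-101163203, had 76.1. Per kb the region over the start was the highest, at 369 per kb, and this was at percentile 25.1. Its only distal region had a mean signal of 50.8 and lay in coding sequence of NAT16. VGF has only 12.4 kb of sequence nearest to its starts, the least of the 10 genes, and that length limits how many regions it can be given. VGF has a CRE in its RefSeq promoter and the lowest promoter signal of the set. CHGA and PCSK1 have a CRE there too, with signals of 3313, the highest of the set, and 1416.

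SCG5 encodes 7B2, the chaperone that PCSK2 needs to become active. Its promoter region at chr15:32641455-32642330 had a mean signal of 760 and 868 per kb, at percentiles 45.7 and 61.5. A second one, chr15:32645029-32645542, had 264. All 6 distal regions, at mean signals of 123 to 1052, lay downstream in introns of SCG5, which are also introns of the readthrough gene ARHGAP11A-SCG5. The strongest, chr15:32650293-32651015, was 8944 bp from the canonical start, with 1.38 times the mean signal of the promoter region. At 13.2 distal regions per 100 kb of nearest sequence, SCG5 was the densest of the set.

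By mean signal, not scaled to width, the 2 convertases that process proinsulin both had strong promoter regions and a distal region of about equal strength. For PCSK1 (PC1/3), the region at chr5:96431762-96433641 spanned both RefSeq starts and had a mean signal of 1416, at percentile 75. It was 1880 bp wide, the widest promoter region of the set, and per kb it reached 753, at percentile 54.0. Of its 12 distal regions, 11 lay between protein-coding genes, with mean signals of 19.5 to 1418 over all 12. The strongest, chr5:96459585-96460311, was 26700 bp upstream, with a mean signal 1.00 times that of the promoter region and 2.59 times on the per kb scale. None of the regions of PCSK1 lay within 10 kb of a start beyond the promoter itself.

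For PCSK2 (PC2), the promoter region at chr20:17225920-17227421 had a mean signal of 2227 and 1483 per kb, at percentiles 91.7 and 86.1. A second promoter region at chr20:17227800-17228911 had 535. Its 8 distal regions ranged from 10.7 to 2478. The strongest, chr20:17315166-17316391, lay 88738 bp downstream in an intron of the gene, and its mean signal was 1.11 times that of the promoter region and 1.36 times per kb. The other 7 distal regions of PCSK2 were at 457 or below.

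Carboxypeptidase E (CPE), which removes the basic residues left by the convertases, had a middling promoter region. At chr4:165378640-165380177 the mean signal was 872, at percentile 51.6, and 567 per kb, at percentile 40.3. Only 1 of its 4 annotated starts had a region within 2 kb. Its 9 distal regions had mean signals of 52.7 to 1158. The strongest, chr4:165459704-165460571, lay 81129 bp downstream of the canonical start in an intron, with 1.33 times the mean signal of the promoter region and 2.35 times per kb. The next strongest distal region had a mean signal of 272.

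PAM, the enzyme that amidates the C terminus of peptides such as amylin, is the longest gene of the set and has 19 annotated protein-coding starts, 15 of them with a region. Its 5 promoter regions had mean signals of 94.4 to 1229. The one over the canonical start, chr5:102754330-102755464, had 595. The strongest, chr5:102807584-102808441, lay 52707 bp further in at an internal start, with 1432 per kb. It differed from the canonical one in base composition, at 41.5% GC and an observed-to-expected CpG ratio of 0.22, against 67.8% and 0.68. The 12 distal regions of PAM were weak, at 26.9 to 374, and 8 lay in its own introns.

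**Figure D2:**
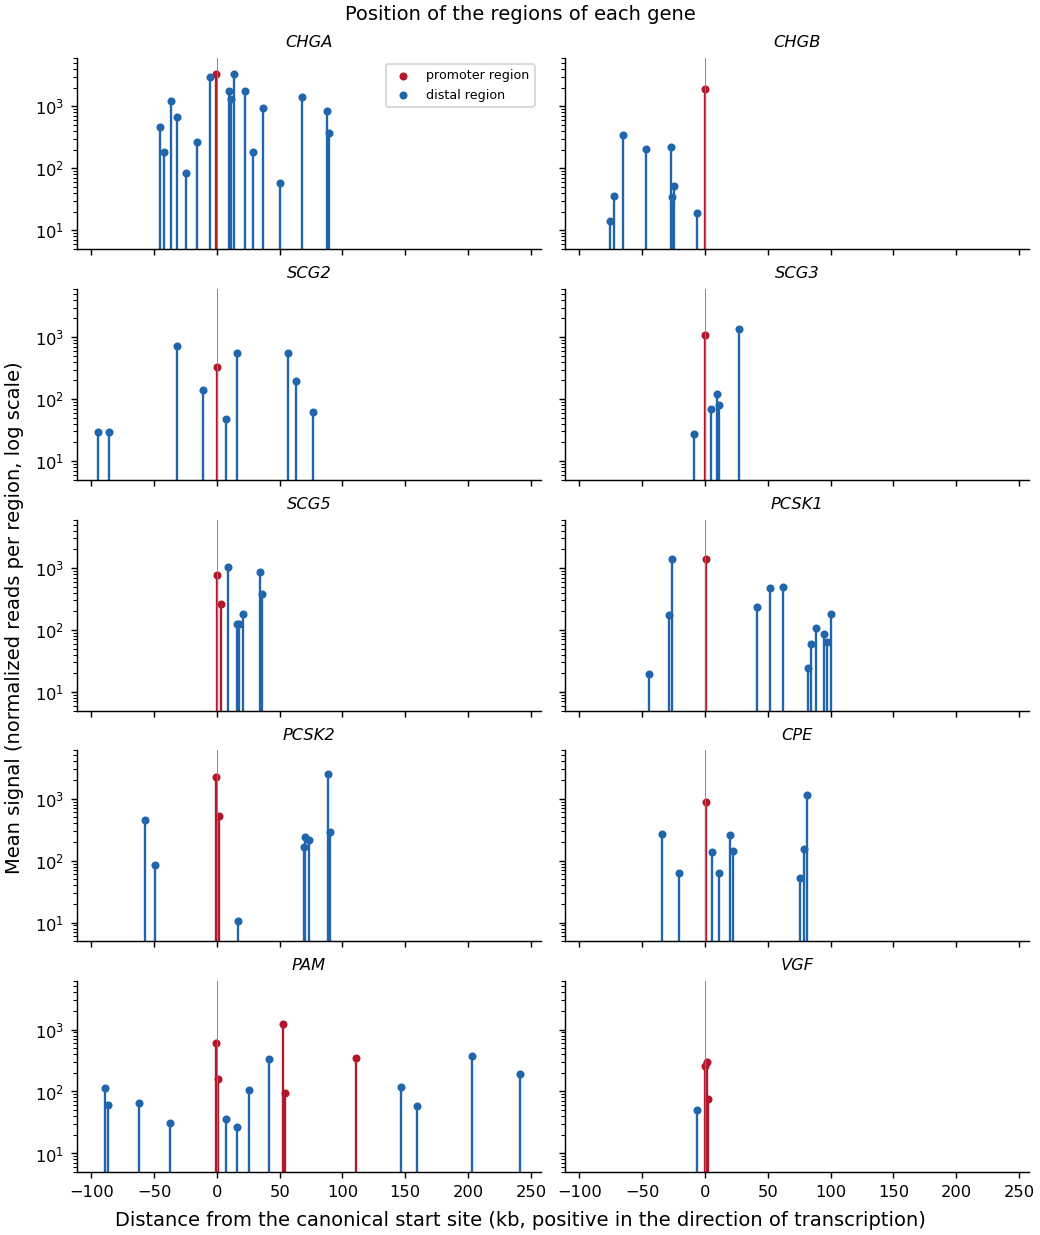
Mean signal (log scale, normalized reads per region) of each promoter region (red) and distal region (blue) against the distance of its midpoint from the canonical start site (kb, positive in the direction of transcription), with 1 panel per gene. The 8 distal regions of CHGB are all upstream and the 6 of SCG5 all downstream, and PCSK2 and CPE each have a strong region more than 80 kb into the gene.

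Ordered by the mean signal of the strongest promoter region, the genes ran CHGA, PCSK2, CHGB, PCSK1, PAM, SCG3, CPE, SCG5, SCG2 and VGF. Per kb of region the order was CHGA, CHGB, PCSK2, PAM, SCG3, SCG5, PCSK1, CPE, SCG2 and VGF. CHGA stood first and SCG2 and VGF last on both scales, and PCSK1 moved most. The median of the strongest promoter regions was 1153 over the 10 genes and 840 over all genes, and 7 of the 10 were above the latter. Per kb the medians were 1041 and 695. Over single promoter regions the difference was small, at a median mean signal of 565 for the 18 and 506 for all, and 519 against 507 per kb. Its direction depended on the setting: when regions under a mean signal of 50 were left out the medians were 565 and 599, and with start sites of transcripts of any type they were 565 and 293.

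The distal regions differed more from the rest of the genome. Their median mean signal was 176, against 88.4 over all 55158 distal regions assigned within 100 kb, and per kb it was 295 against 187. Of the 87, 12 (13.8%) reached 1000 or more, against 3.78% of all. CHGA supplied 7 of these, and without it the share was 5 of 70 (7.14%) and the median 125. At the low end, 14 (16.1%) were under 50, against 31.6% of all.

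The granule genes also had many distal regions. The median was 8.50 per gene, against 2.00 over genes with a promoter region and 1.00 over all genes. These genes have longer stretches of sequence nearest to them, at a median of 145 kb against 64.4 kb, so the number was also set against that length. The density was then 8.0 per 100 kb, against 2.50, and all 10 genes were above the latter. PAM, at 2.93, and PCSK2, at 3.98, were closest to it. VGF, at 8.10, had only 1 distal region in 12.4 kb of nearest sequence, a count below the 2.00 of genes with a promoter region.

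In 7 of the 10 genes the strongest distal region had a higher mean signal than the strongest promoter region. These were CHGA, SCG2, SCG3, SCG5, PCSK1, PCSK2 and CPE, although for CHGA and PCSK1 the ratios were 1.01 and 1.00, and without replicates such values cannot be told apart. Among the 11004 genes with both kinds of region, 28.1% had the distal one higher. Per kb it was 6 of 10, without SCG3, against 37.9%. CHGB, PAM and VGF were promoter-weighted on both scales, with ratios of 0.180, 0.304 and 0.167 in mean signal. In the summed signal of all their regions, the distal part was 69.9% for the 10 genes, 60.1% without CHGA, and 44.8% over all assigned regions. A strongest value and a sum both tend to rise with the number of regions. These comparisons do not allow for that number, a median of 8.50 distal regions per granule gene against 2.00 over genes with a promoter region.

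**Figure D3:**
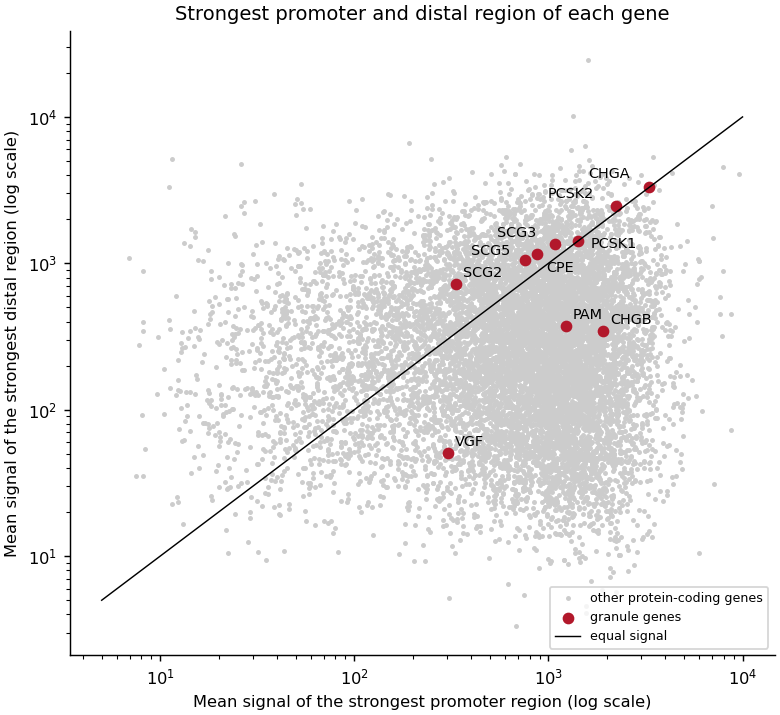
Mean signal of the strongest distal region against that of the strongest promoter region (both log scales) for the 10 granule genes (red) and the other protein-coding genes with both (grey). The line marks equal signal, with 7 granule genes on or above it and CHGB, PAM and VGF below.

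By annotation at their midpoints, 39 of the 87 distal regions lay between genes, 32 in introns of the gene they were assigned to, 11 in introns of another gene (ITPK1, SHLD1 and AP1S3) and 5 in exons. In SCG3, SCG5, PCSK2, CPE and PAM most were intronic, while in PCSK1 and SCG2 most lay between genes. There were 37 upstream and 50 downstream of the nearest start, from 2623 to 99153 bp away, and 13 were within 10 kb. None of the 18 promoter regions also belonged to another protein-coding gene, whereas 11% of all promoter regions did. Median GC content was 57.2% in the promoter regions, against 62.2% in all, and 44.3% in the distal regions, against 47.0%.

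To show the distal sequences themselves, the middle 120 bases of the strongest distal region are given for a convertase and the carboxypeptidase, on the plus strand of hg38. Capitals mark the only match to a searched motif in them, the forkhead (FOXA) letters TGTTTAC on the other strand.
PCSK2, chr20:17315719-17315838: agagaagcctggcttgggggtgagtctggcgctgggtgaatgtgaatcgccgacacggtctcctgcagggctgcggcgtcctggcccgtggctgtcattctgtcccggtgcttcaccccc
CPE, chr4:165460078-165460197: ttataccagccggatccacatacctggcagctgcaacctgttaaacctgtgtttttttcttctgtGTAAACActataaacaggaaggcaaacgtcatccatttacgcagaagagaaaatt
These 120 bases differ widely in base composition, at 65.8% and 40.8% GC. The whole regions differ less, at 55.5% and 44.5%.

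Further motifs were searched on both strands of whole regions: AP-1 TGANTCA, MAF TGCTGAC, FOXA TGTTTAC, an E-box CAGATG, a homeodomain site TAATTA, RFX GTTGCCAT, ETS CCGGAAG, NFY CCAAT, SP1 GGGCGG and a CTCF core AGGGGGC. SP1 and CTCF matches may share bases, as they do in the CHGA promoter. In the distal regions the shares lay near those of all distal regions for AP-1 (20.7% against 18.3%), MAF (12.6% against 12.1%), FOXA (16.1% against 13.6%) and CTCF (11.5% in both). The E-box (58.6% against 45.7%), the homeodomain site (23.0% against 15.1%) and NFY (57.5% against 43.9%) were more frequent, with median widths of 560 bp for the granule genes and 487 bp for all. In the 300 bp windows, where width plays no part, these shares were 26.4% against 32.6%, 11.5% against 9.57% and 33.3% against 29.5%. RFX letters were in 5 of the 87 (5.75%) against 2.68%, and in the windows in 3 (3.45%) against 1.70%. The windows reach past regions narrower than 300 bp. The RFX window match of PCSK1, at chr5:96477408-96477582, a region 175 bp wide, lay outside the region itself. SP1 letters were in 14.9% against 16.6%, and in the windows in 5.75% against 11.1%. For ETS it was 2.30% against 3.59%, and in the windows 0% against 1.87%. In the promoter regions, ETS letters, common in promoters of housekeeping genes, were in 1 of 18 (5.56%), that of PCSK1, against 22.2% of all. MAF letters were in 5 of 18 (27.8%), in CHGB, PCSK2, CPE, PAM and VGF, against 12.2%. In the 300 bp windows this excess was gone, with MAF letters in 1 of 18 (5.56%) against 4.32%, and ETS letters were in 0 of 18 against 9.60%.

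**Figure D4:**
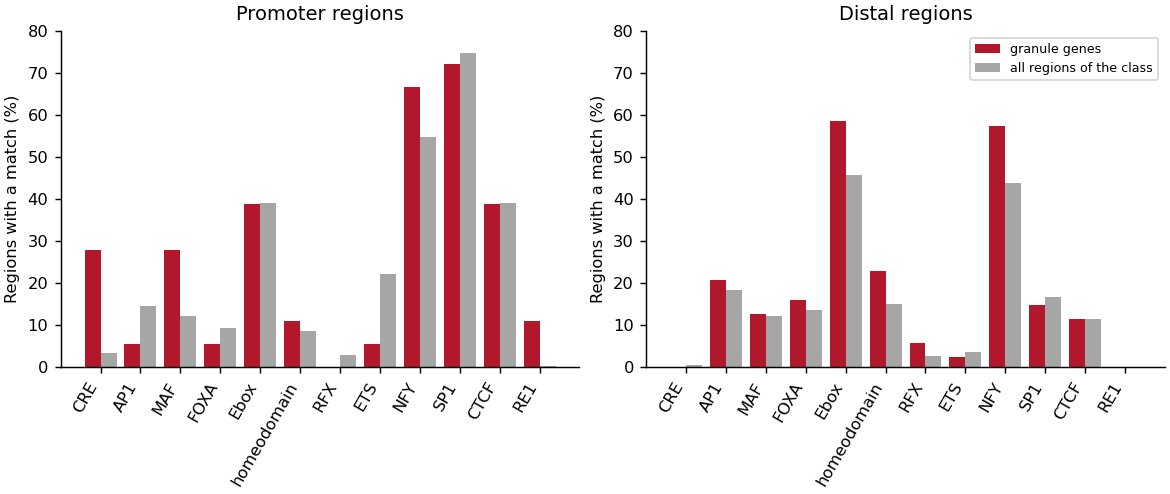
Share of regions (%) with an exact match to each of the 12 searched motifs on either strand, over whole regions, for the granule genes (red) and for all regions of the same class (grey), with promoter regions on the left and distal regions on the right. CRE letters were in 27.8% of the granule gene promoter regions against 3.33% of all, and in none of their distal regions against 0.537% of all.

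At the median, other genes of granule cargo, membrane and biogenesis had fewer distal regions, while the beta cell markers did not. All 34 of a list of these had a promoter region, with a median of 948 for the strongest, and 20 were above the median of genes. The strongest were STX6 at 2159, a Golgi SNARE, NUCB2 at 1993, the precursor of nesfatin, and CCDC186 at 1916, a granule maturation factor. The weakest were PCSK6 at 55.8, a convertase of the constitutive pathway, IAPP at 183, the amylin gene, and TMEM163 at 288, a zinc transporter. The 34 genes had a median of 2.50 distal regions per gene, against 8.50 for the granule genes. Single genes went the other way, and PTPRN2, with 30, and SLC30A8, with 26, had more than CHGA, the highest granule gene, with 17. For these lists the numbers were not set against the length of nearest sequence. The 13 beta cell markers, which share IAPP with this list, had a median of 10.0 distal regions, above that of the granule genes, and their strongest distal regions had a median mean signal of 1306, against 1105. Of the 31 with both kinds of region, 7 (22.6%) had the distal one higher, against 7 of 10. The share was 3 of 11 (27.3%) for the beta cell markers and 4 of 8 (50.0%) for the markers of other cell types. These are descriptions of a single value per region, and the difference between the lists was not tested.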

How the data were processed

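ATAC-seq libraries were prepared from 3 non-senescent and 3 senescent samples of EndoC-βH3 cells. According to the methods of the study, reads were trimmed (Trim Galore), aligned to hg38 with Bowtie2, cleared of mitochondrial and duplicate reads and shifted for the Tn5 offset. Peaks were called with MACS2, and reads in their union were counted with bedtools multicov. The authors deposited 1 signal value per region, the DESeq2 mean of normalized reads over all libraries. A further 5 columns hold the authors' own comparison (fold change, its standard error, statistic, p-value and adjusted p-value) and were not used, so no test between the groups was made. Depth per library is not given by the table.

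Region starts were read as BED positions and moved to 1-based coordinates. Start sites came from GENCODE release 44. Signal per kb is the mean signal divided by region width, which matters because wide regions collect more reads. Assignment was tested on simulated regions. Python 3.11.15, pandas 2.3.3, numpy 2.4.6, pysam 0.24.0 and matplotlib 3.10.9 were used. Genes named are all 10, plus the 3 strongest and 3 weakest of the pathway list and those of it with more distal regions than any granule gene. The genes, lists and motifs were chosen with earlier results of these data known. Alternatives were windows of 1 and 0.5 kb, a limit of 50 kb, a minimum signal of 50, other start sites and signal per kb.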

Additional observations from a re-analysis of the deposited data

How the results depend on the processing

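No paired analysis was possible because the values used are 1 mean per region over all libraries, and for the same reason edgeR, DESeq2 and fits without single replicates were not run. With no spread between replicates, any change of a value counts as a move. The numbers of promoter and distal regions changed by no more than 1.5 times under each window, limit, minimum signal and choice of start sites tried. Promoter regions numbered 14 to 22, against 18 as reported. Distal regions numbered 58 to 91, against 87 as reported. The low of 58, at that bound, came both with the limit of 50 kb and with start sites of transcripts of any type. The number of genes with a stronger distal region stayed at 6 or 7, under alternatives that were chosen after seeing the data. Over all genes with both kinds of region this share ranged from 20.8%, with start sites of any type, to 37.9% per kb. The median mean signal of the promoter regions was 760 with a window of 1 kb and 816 with 0.5 kb (590 and 655 over all promoter regions), and 519 per kb. It stayed at 565 with a minimum signal of 50 and with start sites of any type, where the median of all promoter regions was 599 and 293, so that at the minimum signal the granule genes were below it. That of the distal regions was 171 with a window of 1 kb, 206 with a minimum signal of 50, 177 with a limit of 50 kb, 158 with start sites of transcripts of any type, 161 with canonical starts and 295 per kb. Over all distal regions the corresponding medians were between 81.7 and 153, or 187 per kb. Per kb, the percentile of the strongest promoter region was 95.7 for CHGA, 90.3 for CHGB, 35.7 for SCG2, 77.9 for SCG3, 61.5 for SCG5, 54.0 for PCSK1, 86.1 for PCSK2, 40.3 for CPE, 84.7 for PAM and 25.1 for VGF. CPE thereby fell from just above to below the median of genes, and SCG5 rose above it. Promoter regions with a CRE numbered 5 over whole regions instead of 3 in 300 bp windows.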
